A study of Mus musculus with 13 samples.

Results

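The 10 genes described here are the melanogenesis genes Dct, Tyrp1, Tyr, Pmel, Mlana, Mitf, Slc45a2, Slc24a5, Oca2 and Kit. They were taken by symbol from a list and not by a limit on measured values, with earlier results of these data known. All 10 were among the 27998 gene rows of the single-cell tables. The levels of these genes were read over age and genotype in the melanocyte lineage of mouse skin, and as transcripts found in other cells.

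The study profiled C57BL/6 mouse skin by droplet single-cell RNA-seq of polyA RNA, which counts unique molecular identifiers (UMIs) at transcript 3′ ends. WT skin was compared with skin of Grhl3-/- littermates, which lack the epidermal transcription factor GRHL3 in every cell. Each genotype had 2 libraries per age (E14.5, E16.5 and P0), from 1 male and 1 female, and there was 1 further P0 WT library made with the older Chromium v1 chemistry, which has no replicate. E14.5 and E16.5 libraries held whole back skin and P0 libraries held epidermis, so age and tissue cannot be told apart between E16.5 and P0. The methods call the oldest age E18.5/P0. Grhl3-/- embryos had spina bifida, and their skin was taken from an anterior site.

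Melanocytes derive from the neural crest, reach the skin as dividing melanoblasts and enter the epidermis and hair follicles, where they make melanin in melanosomes and hand it to keratinocytes. MITF is the transcription factor that drives much of the program, and KIT is the receptor for KITL that melanoblasts need to survive and migrate. PMEL forms the fibrils of the early melanosome, and MLANA binds PMEL and takes part in its maturation. Tyrosinase (TYR) carries out the rate-limiting step of melanin synthesis, and DCT and TYRP1 act after it in the making of eumelanin. SLC45A2, OCA2 and SLC24A5 are transporters or channels that set the ion content and acidity of melanosomes and related compartments.

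The promoters of 4 members are shown because they hold the M-box core TCATGTG, the extended E-box known as a binding site of MITF. Sequences are from RefSeq on GRCm38.p6 and run 5′ to 3′ on the gene's own strand, from 250 bases before to 50 after the annotated start, with TCATGTG or its reverse complement CACATGA in capitals.
Dct (chr14:118052197-118052496, minus strand): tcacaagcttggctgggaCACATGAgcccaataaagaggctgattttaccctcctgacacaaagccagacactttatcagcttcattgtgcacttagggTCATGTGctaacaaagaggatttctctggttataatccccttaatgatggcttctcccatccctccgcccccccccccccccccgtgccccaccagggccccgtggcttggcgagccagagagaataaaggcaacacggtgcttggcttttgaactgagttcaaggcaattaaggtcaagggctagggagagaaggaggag
Tyrp1 (chr4:80833963-80834262, plus strand): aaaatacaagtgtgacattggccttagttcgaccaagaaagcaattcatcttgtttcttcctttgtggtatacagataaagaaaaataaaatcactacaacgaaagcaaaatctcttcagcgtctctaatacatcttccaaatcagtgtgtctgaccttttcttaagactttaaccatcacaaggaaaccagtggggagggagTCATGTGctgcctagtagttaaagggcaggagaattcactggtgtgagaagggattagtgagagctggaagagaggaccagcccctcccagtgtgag
Tyr (chr7:87493463-87493762, minus strand): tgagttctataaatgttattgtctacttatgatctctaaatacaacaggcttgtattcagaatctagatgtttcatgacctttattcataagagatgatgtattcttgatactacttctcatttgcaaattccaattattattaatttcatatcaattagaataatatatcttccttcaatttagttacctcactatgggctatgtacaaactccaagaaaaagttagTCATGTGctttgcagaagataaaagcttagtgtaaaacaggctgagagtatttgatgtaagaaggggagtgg
Slc24a5 (chr2:125067877-125068176, plus strand): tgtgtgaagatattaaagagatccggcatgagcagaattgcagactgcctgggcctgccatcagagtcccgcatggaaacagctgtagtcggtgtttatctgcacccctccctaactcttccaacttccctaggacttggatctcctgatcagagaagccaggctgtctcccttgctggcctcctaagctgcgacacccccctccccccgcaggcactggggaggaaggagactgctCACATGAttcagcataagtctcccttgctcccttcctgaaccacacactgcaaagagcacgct

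RefSeq promoter windows were given for 7 of the 10 members, 10 windows in all, and those of Kit, Mitf and Oca2 did not hold the core. Pmel, Mlana and Slc45a2 were not matched. The Dct window held 2 copies, which began at −232 and −151 from the RefSeq start. The core began at −47 in Tyrp1, at −22 in Tyr and at −13 in Slc24a5. Over all 32851 promoter windows of this length, 3.77% held TCATGTG on either strand, and counted by gene 4.31% of 27025 did. The shorter CATGTG, which every copy of the core contains, was in windows of 5 members, the fifth being Oca2. It was in 14.2% of all windows and 15.9% of genes. The E-box CACGTG was in none of the 7 members' windows, in 7.15% of all windows and in 8.09% of genes. A match is a run of letters and not a measured site.

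On GRCm38, Kit spans chr5:75574916-75656722, Mitf chr6:97807052-98021349, Pmel chr10:128704195-128720238, Mlana chr19:29697824-29708634, Slc45a2 chr15:11000721-11029233 and Oca2 chr7:56239760-56536518. The last 4050 bases of Slc24a5 overlap Myef2 on the opposite strand. Pmel overlaps Cdk2 by 837 bases and Dgka by 105 bases, both on the opposite strand. Oca2 overlaps the antisense gene Gm44506 by 965 bases, and Gm44506 had 0 UMIs in the replicated libraries, over all kept cells. Whether reads were counted by strand was not stated, and whether the reads of such a pair were told apart was not tested.

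After the study's filters the libraries held 5058 to 9157 cells, from deposited totals of 49245953 to 107038146 UMIs, at a median of 7448 to 9976 UMIs per cell. No 2 libraries shared more than 1.57% of the smaller library's barcodes. Grhl3 itself, read over all kept cells, was at 4.03 and 6.65 CPM (UMIs scaled to a fixed total per library or class) in WT and at 1.47 and 0.693 in Grhl3-/- at E16.5. At P0 it was at 6.998 and 8.29 in WT and at 2.42 and 2.81 in Grhl3-/-. At E14.5 it was at 4.42 and 7.30 in WT and at 4.08 and 9.89 in the libraries labelled Grhl3-/-, so it does not separate the genotypes there. A 3′ tag can lie outside the deleted part of a gene. Why Grhl3 was counted in libraries labelled Grhl3-/-, and why more so at E14.5 than later, was not tested.

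Melanocyte-like cells were found by clustering each age and by 15 markers that include none of the 10 members. They numbered 4425 of 86507 kept cells, 4089 of them in the 12 replicated libraries. Of the 15 markers, 10 at E14.5, 9 at E16.5 and 13 at P0 were higher in every library than the median of every other class. Sox10 and Ednrb were also high in Schwann-like cells before birth, Rab38 and Cited1 were higher in another class at every age, and Kcnj13 was at 0 in every E16.5 library. All 10 Schwann markers were below their Schwann-like median in the melanocyte-like cells of every E14.5 and E16.5 library.

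Melanocyte-like cells were rare before birth and common in P0 epidermis. At E14.5 they were 0.684% and 0.598% of kept cells in WT, and 0.688% and 0.588% in the libraries labelled Grhl3-/-, with 36 to 42 cells per library. At E16.5 they were 0.850% and 0.855% in WT and 1.01% and 0.539% in Grhl3-/-, with 35 to 74 cells. At P0 they were 14.8% and 14.52% in WT and 9.24% and 12.4% in Grhl3-/-, with 846 to 1004 cells.

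The mean share was 15.8-fold higher at P0 than at E16.5, and the 4 libraries of one age did not overlap the 4 of the other (exact permutation test over libraries, two-sided p = 0.0286, the smallest that 70 arrangements allow). Without cluster c10, a P0 cluster that stood apart, it was 10.4-fold higher, again with no overlap (exact permutation p = 0.0286). E16.5 was 1.24-fold above E14.5, with overlapping libraries (exact permutation p = 0.2), and the direction turned where melanocyte-like cells were taken by a gate on single cells (0.740 of the E14.5 share, exact permutation p = 0.0857). The Grhl3-/- share was 0.857 of the WT share over the 3 ages together (exact permutation within ages, p = 0.25, where the smallest possible p is 0.00926). With 1 library left out at a time, this difference ran from −0.374 to −0.071 on the log2 scale. Without E14.5, where Grhl3 itself does not separate the labels, the Grhl3-/- share was 0.795 of the WT share (exact permutation p = 0.278, where the smallest possible p is 0.0556). At P0 both Grhl3-/- libraries were below both replicated WT libraries, but the WT library of v1 chemistry was lower still, at 6.64% (exact binomial 95% interval 5.97% to 7.36%). That last rank rests on c10: without it the Grhl3-/- shares were 6.30% and 8.13%, on either side of the v1 library, from which no cluster was left out.

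**Figure D1:**
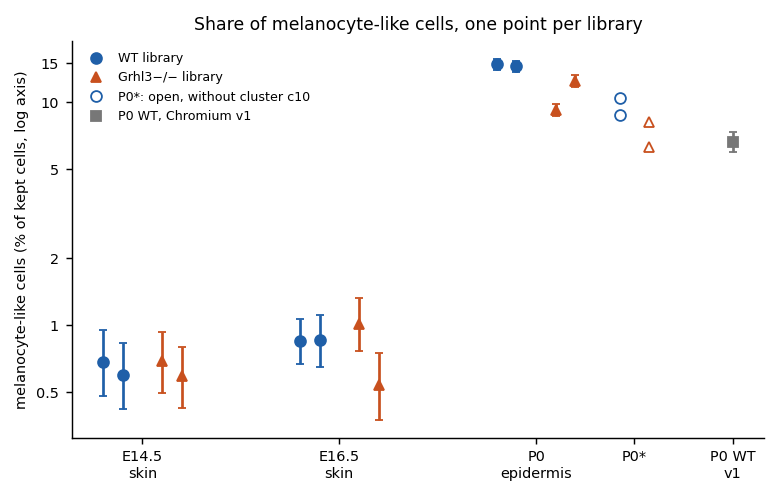
Melanocyte-like cells as a percent of kept cells (log axis) by age, one point per library with its exact binomial 95% interval for counting error. The E14.5 and E16.5 libraries lie between 0.539% and 1.01%, and the 4 replicated P0 libraries between 9.24% and 14.8%. Open symbols (P0*) leave out cluster c10.

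At P0 the melanocyte-like cells formed 4 clusters, and one of them, cluster c10 with 1260 cells, stood apart. Its cells had a median of 9319 to 16758 UMIs per library against 4867 to 9468 in the other 3 clusters. Of its cells, 31.9% to 71.7% were marked by doublet score, against at most 1.04% elsewhere. The hair follicle gene Lhx2 was at 209 to 338 CPM in c10 and at most 21.6 CPM in the other clusters, and Krt14 was at 1265 to 2025 CPM against at most 249.7. The part of these measures in any result was not tested, so P0 values are given with c10 and, where the call changes, without it. Without c10 the P0 shares were 8.77% and 10.5% in WT and 6.30% and 8.13% in Grhl3-/-.

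At E14.5, the earliest age sampled, the members fell into those found in most cells of the lineage and those found in few. For this comparison each cell was thinned to 3000 UMIs. Dct had a UMI in 87.8% to 94.4% of melanocyte-like cells over the 4 libraries and Pmel in 85.7% to 97.6%. Mlana was found in 58.5% to 76.2% of cells and Slc24a5 in 50% to 69.4%. Dct and Pmel lay above every other member in every library, and their ranges overlapped, as did those of Mlana and Slc24a5.

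Tyr was found in 36.1% to 57.1% of cells at E14.5, Slc45a2 in 38.1% to 56.1%, Kit in 30.6% to 52.4% and Mitf in 30.6% to 42.9%. The ranges of these 4 overlap one another, and those of Tyr, Slc45a2 and Kit overlap that of Slc24a5. Tyrp1 was found in 4.76% to 16.7% of cells and Oca2 in 0% to 2.78%, below every other member in every library. A cell without a UMI at this depth may still hold the transcript.

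Tyrp1, which acts late in eumelanin synthesis, lay in a minority of melanocyte-like cells before birth. At E14.5, WT library 1 held 27 Tyrp1 UMIs, all in 3 of 36 cells, and WT library 2 held 25 UMIs in 7 of 36 cells. The libraries labelled Grhl3-/- held 8 UMIs in 4 cells and 6 UMIs in 2 cells. At E16.5, WT library 1 held 170 UMIs in 20 of 74 cells and WT library 2 held 29 in 6 of 57.

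The E16.5 Grhl3-/- libraries held 35 Tyrp1 UMIs in 4 of 55 cells and 52 UMIs in 7 of 35. The 3 richest cells carried 46.5% to 94.3% of a library's Tyrp1 UMIs at E16.5. At P0, where a library held 1244 to 6297 Tyrp1 UMIs, the richest 5.28% to 14.1% of cells held 50% of them, against 24.1% to 28.4% for Dct. At P0, Tyrp1 was found in 22.6% and 44.4% of thinned WT cells and in 43.4% and 59.8% of Grhl3-/- cells.

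Oca2, whose product acts in melanosome acidity, was at the limit of detection before birth. The 8 E14.5 and E16.5 libraries held 0 to 8 Oca2 UMIs each over all their melanocyte-like cells. With 0 UMIs in 1 E14.5 and 1 E16.5 library labelled Grhl3-/-, a floor of 3 counts corresponds to 5.65 and 9.60 CPM there, for counting error only. At P0 Oca2 had 54 and 104 UMIs in WT and 191 and 356 in Grhl3-/-, in 35 to 160 cells per library.

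Counted together, a thinned melanocyte-like cell held a UMI of 4.74 to 5.44 of the 10 members on average at E14.5, of 5.80 to 6.38 at E16.5 and of 5.52 to 6.25 at P0. The E14.5 and E16.5 libraries did not overlap in this mean. Cells with 3 members or fewer made up 8.33% to 23.8% at E14.5, 1.41% to 2.94% at E16.5 and 8.83% to 13.3% at P0. These P0 values include cluster c10 and were not read without it.

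**Figure D2:**
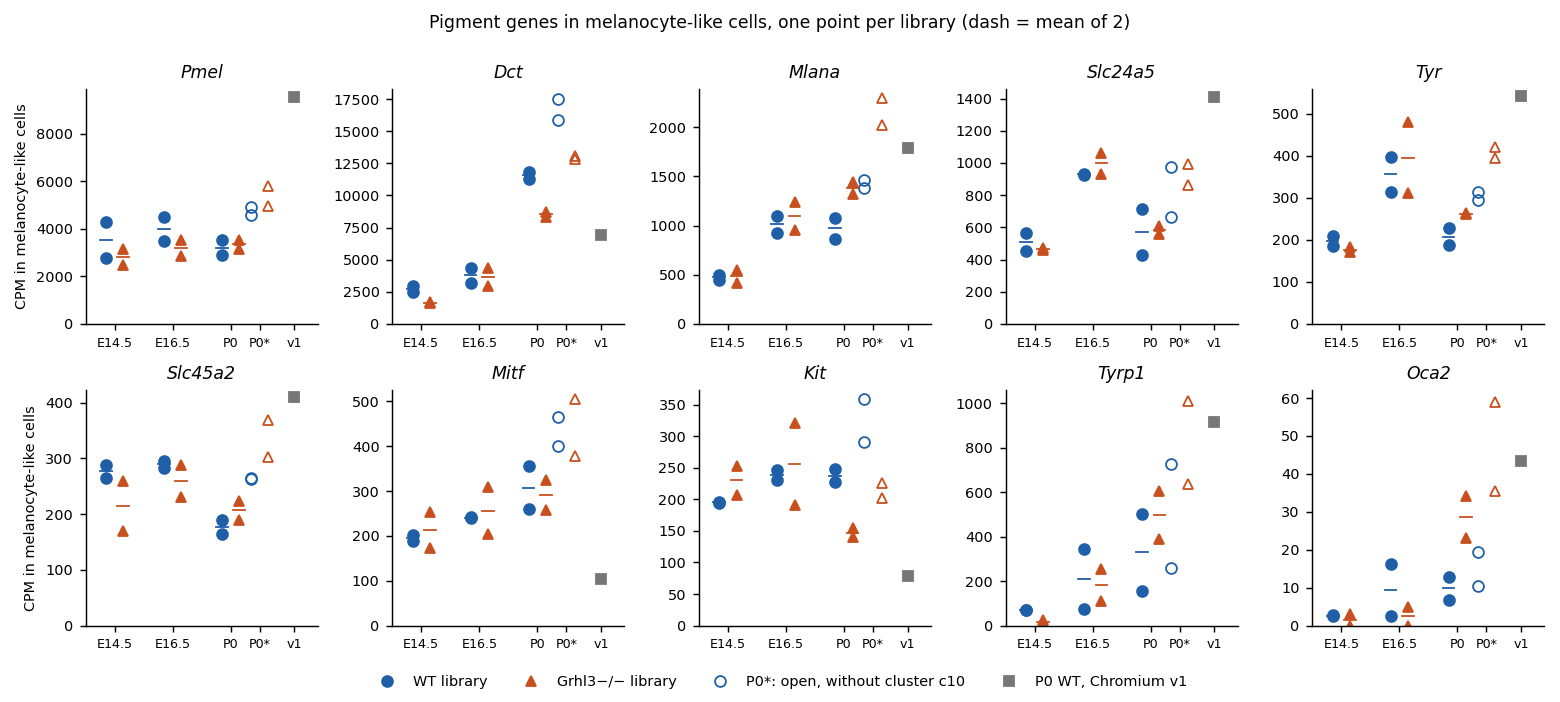
Level of each member in melanocyte-like cells (CPM of summed UMIs, linear axes from 0) by age, with one point per library, filled for all melanocyte-like cells and open at P0* without cluster c10; dashes are means of 2 libraries. Dct rises to 11309 and 11859 CPM in the P0 WT libraries, Kit is lower and Oca2 higher in the P0 Grhl3-/- libraries, and the grey v1 library lies above them for Pmel.

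From E14.5 to E16.5 in WT, Mlana, Slc24a5 and Tyr rose in melanocyte-like cells, while the other 7 members did not pass the test. Mlana was at 500.1 and 452 CPM at E14.5 and at 1097 and 927 at E16.5, a log2 change of 1.17 (SE 0.18, edgeR quasi-likelihood test, adjusted p = 0.00228). Slc24a5 went from 454 and 562 to 933 and 925 CPM (log2 0.95, SE 0.19, adjusted p = 0.0172). Tyr went from 209 and 186 to 314 and 397 CPM (log2 0.92, SE 0.20, adjusted p = 0.0291).

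In all 3 genes both later libraries lay above both earlier ones. Slc24a5 carries the reads it may share with Myef2, which was at 30.6 to 75.3 CPM in melanocyte-like cells at E14.5 and at 33.8 to 68.5 at E16.5. The members called were 3 of 10, against 1.54% of the 6429 genes tested. The median log2 change was 0.74 over the 10 members and 0.01 over all genes tested.

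Dct was at 2470 and 2945 CPM in WT at E14.5 and at 4370 and 3179 at E16.5 (log2 0.56, SE 0.16, adjusted p = 0.0902). Tyrp1 was at 68.8 and 69.3 and then at 346 and 75.3 CPM (log2 1.74, SE 0.68, adjusted p = 0.242), with 1 E16.5 library close to the earlier ones. Pmel was at 2783 and 4306 and then at 4512 and 3483 CPM, and its libraries overlapped.

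Mitf (201 and 188, then 242 and 239 CPM; log2 0.38, adjusted p = 0.481) and Kit (196 and 194, then 246 and 231 CPM; log2 0.37, adjusted p = 0.435) did not overlap between ages but missed the threshold. Slc45a2 was at 265 and 288 and then at 295 and 283 CPM. These calls rest on 36 to 74 cells per library: Slc24a5 and Tyr each lost the call without any 1 of the 4 WT libraries, with adjusted p of 0.094 to 0.156 for Slc24a5 and 0.0679 to 0.247 for Tyr. Mlana lost it without WT replicate 2 of E14.5 (log2 1.06, adjusted p = 0.0601), and then no member was called. Without WT replicate 2 of E16.5 Dct was called (log2 0.78, adjusted p = 0.047).

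From E16.5 whole skin to P0 epidermis in WT, Dct rose and 3 members fell. Dct was at 4370 and 3179 CPM at E16.5 and at 11309 and 11859 at P0, a log2 change of 1.72 (SE 0.16, adjusted p = 1.33e-06). Tyr (314 and 397, then 188 and 228 CPM; log2 −0.66, SE 0.17, adjusted p = 0.00977), Slc45a2 (295 and 283, then 164 and 190; log2 −0.60, adjusted p = 0.0138) and Slc24a5 (933 and 925, then 427 and 717; log2 −0.60, adjusted p = 0.0226) were called lower. Members were called in 4 of 10 cases, against 26.5% of the 6429 genes.

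The lower calls ended when cluster c10 was left out. Without it, Tyr was at 293 and 315 CPM at P0 (log2 −0.14, adjusted p = 0.631), Slc45a2 at 263 and 265 (log2 −0.05, adjusted p = 0.868) and Slc24a5 at 665 and 976 (log2 −0.10, adjusted p = 0.724). Dct stood at 17517 and 15879 CPM (log2 2.23, SE 0.16, adjusted p = 5.14e-08). Mitf was then called higher, at 401 and 466 CPM (log2 0.93, SE 0.19, adjusted p = 0.00323), as was Mlana at 1378 and 1469 (log2 0.57, SE 0.16, adjusted p = 0.0236).

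Without c10 the calls were thus 3 of 10 members, all higher, against 16.2% of 6261 genes tested. Dct alone was called in the same direction both with and without c10. Pmel (2911 and 3508 CPM at P0; without c10, 4587 and 4906) and Kit (248 and 227; without c10, 359 and 291) were not called either way. Tyrp1 was at 156 and 504 CPM at P0 in WT (log2 0.69, SE 0.50, adjusted p = 0.33), the widest spread, as a ratio, between the 2 libraries of any member there. It was called higher without E16.5 WT replicate 1 (log2 2.26, adjusted p = 0.0378) or P0 WT replicate 1 (log2 1.303, adjusted p = 0.0231). The lower calls of Slc45a2 and Slc24a5 were each lost without either E16.5 WT library or P0 WT replicate 1, with adjusted p of 0.0555 to 0.129 and 0.0772 to 0.245. That of Tyr was lost without E16.5 WT replicate 2 (adjusted p = 0.129) or P0 WT replicate 1 (adjusted p = 0.058). Without P0 WT replicate 1 Mitf was called higher (log2 0.66, adjusted p = 0.0261).

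Within P0, the 4 clusters differed in how much of the program they carried. Cluster c28, 26 to 50 cells per library and 2.59% to 5.52% of melanocyte-like cells, had the highest levels of 9 members in both genotypes. Its Pmel stood at 10376 to 13251 CPM against 1512 to 5266 in the other clusters, its Tyrp1 at 1577 to 2964 against 76.3 to 846, and its Oca2 at 141 to 384 against 3.18 to 39.3. The members were left out of the genes used for clustering, but the 4 clusters share libraries, so this is a description without a test.

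Kit did not follow the other members. It was at 182 to 209 CPM in c28, at 207 to 339 in c6 and at 198 to 403 in c17. Cluster c17, 171 to 211 cells per library, carried the cycling genes, with Top2a at 747 to 950 CPM against 0 to 32.8 in c28, 16.7 to 47.8 in c6 and 201 to 349 in c10. Mitf, the driver of the program, was at 330 to 477 CPM in c17, at 375 to 479 in c6 and at 429 to 788 in c28.

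**Figure D3:**
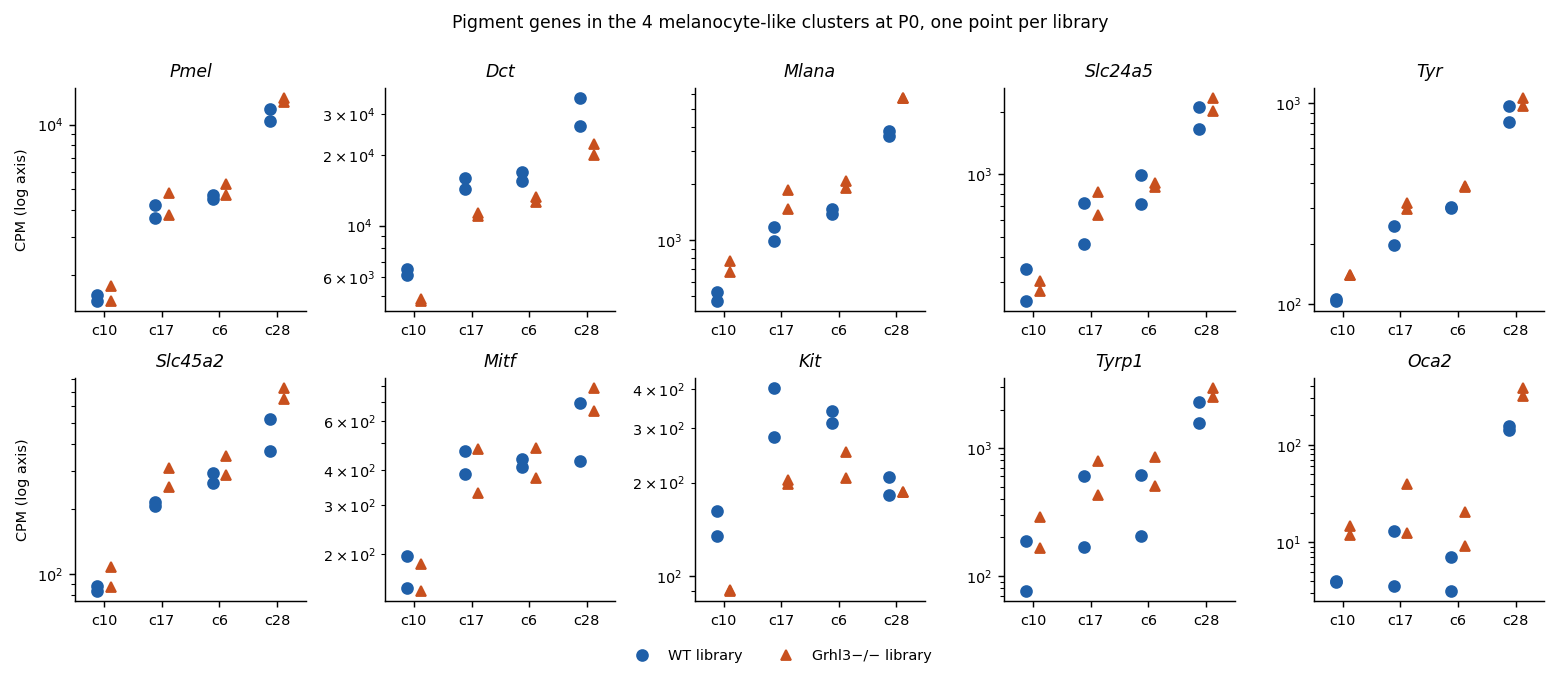
Member levels (CPM, log axes) in the 4 melanocyte-like clusters of P0 epidermis, one point per library. Cluster c28 is highest for 9 members. In all 4 clusters the Grhl3-/- libraries are below WT for Dct and above WT for Mlana and Tyr. Kit separates by genotype in c10, c17 and c6 but not in c28.

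In Grhl3-/- skin at P0, Kit was lower and Oca2 higher in melanocyte-like cells. Kit was at 248 and 227 CPM in WT and at 155 and 140 in Grhl3-/- (log2 −0.71, SE 0.16, adjusted p = 0.00888). Oca2 was at 6.79 and 12.95 CPM in WT and at 23.1 and 34.3 in Grhl3-/- (log2 1.52, SE 0.33, adjusted p = 0.0085). With or without c10, Oca2 passed the low-count filter only through the P0 Grhl3-/- libraries, where it was high. Its call is therefore given as a description. Neither gene's replicated libraries overlapped between genotypes. The WT library of v1 chemistry, which was not tested, had Kit at 78.6 CPM, below both Grhl3-/- libraries with or without c10. Its Oca2 level, 43.3 CPM, was above both with c10 and between them without it (35.4 and 59.1 CPM). The fit called these 2 of 10 members, against 12.1% of the 6429 genes tested. With Oca2 set aside for its filter, Kit was the 1 member called.

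Dct (11309 and 11859 CPM in WT, 8705 and 8332 in Grhl3-/-; log2 −0.46, SE 0.16, adjusted p = 0.0629) and Mlana (867 and 1081 in WT, 1319 and 1444 in Grhl3-/-; log2 0.48, SE 0.17, adjusted p = 0.0666) did not overlap between genotypes and missed the threshold. Tyr was at 188 and 228 CPM in WT and at 261 and 263 in Grhl3-/- (log2 0.32, SE 0.16, adjusted p = 0.202). The genotypes overlapped for Tyrp1 (156 and 504, against 390 and 607 CPM), Pmel (2911 and 3508, against 3168 and 3542) and Mitf (260 and 355, against 258 and 325).

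Slc45a2 was at 164 and 190.2 CPM in WT and at 190.3 and 223 in Grhl3-/-, where the genotypes nearly met (log2 0.20, SE 0.15). Slc24a5 was at 427 and 717 CPM in WT and at 556 and 610 in Grhl3-/- (log2 0.01, SE 0.18). For these 5 genes no difference was called in this fit, with 2 libraries per genotype.

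Without cluster c10, Kit (log2 −0.63, adjusted p = 0.0377) and Mlana (log2 0.57, adjusted p = 0.0464) were called, against 5.51% of 6261 genes. Dct was not called (log2 −0.40, adjusted p = 0.149). The Oca2 call (log2 1.61, adjusted p = 0.00776) is again given as a description, because of the filter. Kit then stood at 359 and 291 CPM in WT and at 226 and 202 in Grhl3-/-, and Mlana at 1378 and 1469 in WT and at 2020 and 2300 in Grhl3-/-. The Kit call was lost without Grhl3-/- replicate 2 of P0 (log2 −0.62, adjusted p = 0.168), where Oca2 did not pass the filter and no member was called. Without P0 WT replicate 2, Tyrp1 (log2 1.61, adjusted p = 0.00449) and Mlana (log2 0.61, adjusted p = 0.025) were called as well. Dct was called lower without any 1 of the 4 E16.5 libraries (adjusted p = 0.0399 to 0.0477).

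The direction was also read cluster by cluster. In c6, Kit was at 339 and 311 CPM in WT and at 251 and 207 in Grhl3-/-. In the cycling c17 it was at 403 and 280 in WT and at 204 and 198 in Grhl3-/-, and in c10 at 162 and 135 against 89.9 and 90.7. In c28 the genotypes overlapped (209 and 182 in WT, 187 and 187 in Grhl3-/-).

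Dct was lower, and Mlana and Tyr were higher, in both Grhl3-/- libraries in all 4 clusters. In c28, Dct was at 35242 and 26813 CPM in WT and at 22387 and 20073 in Grhl3-/-, and Mlana at 3594 and 3833 against 5725 and 5718. Oca2 was higher in both Grhl3-/- libraries in c6, c10 and c28, at 141 and 154 CPM in WT and 315 and 384 in Grhl3-/- in c28, and overlapped in c17. The 4 clusters share libraries and are not replicates. Tested in c17 alone Kit was called lower (log2 −0.82, SE 0.19, adjusted p = 0.0131) and in c6 alone it was not (log2 −0.51, SE 0.17, adjusted p = 0.122). Oca2 did not pass the filter in either cluster alone.

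Cluster c28 made up 2.59% and 3.87% of melanocyte-like cells in P0 WT and 5.08% and 5.52% in Grhl3-/-. Hbb-bs, a red cell transcript, was at 601 CPM in c6 of WT library 1 and at most 6.54 CPM in c6 of the other P0 libraries. Its part in the c6 values was not tested.

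Before birth no member was called between genotypes in melanocyte-like cells. At E14.5, Dct was at 2470 and 2945 CPM in WT and at 1669 and 1592 in the libraries labelled Grhl3-/- (log2 −0.76, SE 0.16), with an adjusted p of 0.196 in edgeR. It was the only member with an unadjusted p under 0.05, and DESeq2 called 0 of 10. The genotypes did not overlap for Dct, which was called without P0 WT replicate 2 (adjusted p = 0.0498). Genes called at E14.5 were 0.0156% of 6429. At E16.5, Dct was at 4370 and 3179 CPM in WT and at 2967 and 4314 in Grhl3-/-, and 0 members had an unadjusted p under 0.05 or were called by DESeq2, against 0.0467% of genes called.

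Kit before birth was at 196 and 194 CPM in WT and 253 and 207 in the libraries labelled Grhl3-/- at E14.5, and at 246 and 231 in WT and 320.1 and 191 in Grhl3-/- at E16.5. The Kit genotype difference at P0 minus that at E16.5 was −0.84 (SE 0.26, adjusted p = 0.138), and for Oca2 it was 3.89 (SE 1.45, adjusted p = 0.203). Both had an unadjusted p under 0.05, but neither passed after adjustment in edgeR or DESeq2, so a difference in the genotype effect between ages was not shown in melanocyte-like cells (genes called, 0.591%). Between E16.5 and E14.5 Dct alone had an unadjusted p under 0.05 (log2 0.70, adjusted p = 0.699), with 0 members called by either tool and 0.0622% of genes called.

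Summed over all kept cells, a level mixes the share of melanocytes with the RNA per cell, and fewer cells of a type and less RNA per cell cannot be told apart in such sums. All 10 members were higher at P0 than at E16.5 in WT, where 67.9% of the 17187 genes tested were called, with log2 changes from 1.03 for Slc24a5 (adjusted p = 0.000684) to 5.75 for Dct (adjusted p = 9.09e-08). From E14.5 to E16.5, Mlana (log2 1.19, adjusted p = 0.00786) and Tyr (log2 0.95, adjusted p = 0.0282) rose, against 23.3% of genes called. Without E14.5 WT replicate 2 neither was, and Tyr was also lost without E16.5 WT replicate 1 (adjusted p = 0.0514) or 2 (adjusted p = 0.15).

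In the P0 genotype comparison over all kept cells, Kit (log2 −0.85, SE 0.25, adjusted p = 0.0276) and Oca2 (log2 1.41, SE 0.42, adjusted p = 0.0277) were called, against 34.1% of genes. Kit was lost without P0 WT replicate 1 (adjusted p = 0.173) or Grhl3-/- replicate 1 (adjusted p = 0.151). Oca2 was lost without P0 WT replicate 1 (adjusted p = 0.147), WT replicate 2 (adjusted p = 0.0606) or Grhl3-/- replicate 2 (adjusted p = 0.27). At E14.5 and E16.5 edgeR called 0 members, with 0.303% and 1.83% of genes called. There Dct at E14.5 and both Dct and Pmel at E16.5 had an unadjusted p under 0.05, and DESeq2 called Dct lower at E14.5 and Pmel lower at E16.5.

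The Oca2 genotype difference over all kept cells was 2.89 log2 larger at P0 than at E16.5 (SE 0.87, adjusted p = 0.0464), where 19.5% of genes were called. It rests on 11 and 6 UMIs in E16.5 WT and 3 and 2 in E16.5 Grhl3-/-, and the call was lost in every fit that left out 1 library except that without P0 Grhl3-/- replicate 1 (adjusted p = 0.0195 to 0.162). From E14.5 to E16.5 no member's genotype difference was called over all kept cells, 0 had an unadjusted p under 0.05 and DESeq2 called 0, with 0.547% of genes called.

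Before birth most UMIs of Dct, Pmel, Mlana, Tyr and Slc45a2 lay in the melanocyte-like cells, and most of those of Kit, Mitf and Slc24a5 did not. Melanocyte-like cells held 92.2% to 96.5% of Dct UMIs at E14.5 and E16.5, 89.3% to 94.9% of Pmel, 89.1% to 95.1% of Mlana and 90.7% to 97.98% of Tyr. They held 86.8% to 99.0% of Slc45a2 UMIs. Of Tyrp1, which had few UMIs at these ages, they held at least 54.5% at E14.5 and 71.4% at E16.5, and Schwann-like cells held up to 26.5% at E16.5. By contrast they held 9.77% to 21.2% of Kit, 20.5% to 33.9% of Mitf and 6.55% to 16.9% of Slc24a5. Fibroblast-like cells held 19.3% to 37.4% of Mitf UMIs, a range that overlapped that of melanocyte-like cells.

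Mast-like cells, which need KIT for survival, held 57.1% to 73.9% of Kit UMIs at E14.5 and 61.5% to 64.7% at E16.5. Their Kit level was 218 to 269 CPM at E14.5 and 242 to 342 at E16.5, over the 8 libraries near the 191 to 320.1 of melanocyte-like cells. Mitf in mast-like cells was at 35.9 to 42.7 CPM and then at 51.9 to 75.5, below the 173 to 308 of melanocyte-like cells in every library. Endothelial-like cells had Kit at 9.18 to 17.5 CPM and Schwann-like cells at 0 to 6.22. No mast-like or Schwann-like class was found in P0 epidermis, where melanocyte-like cells held 78.7% to 84.8% of Kit UMIs.

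Slc24a5 was counted widely before birth. It was at 75.7 to 113 CPM in Schwann-like cells at E14.5 and 61.7 to 101 at E16.5, at 25.9 to 39.2 and 26.8 to 32.0 in fibroblast-like cells, and at 26.2 to 36.5 and 31.8 to 50.1 in keratinocyte-like cells. Myef2, its overlapping neighbour on the other strand, was at 118 to 163 CPM in Schwann-like cells at E14.5 and at 44.7 to 59.8 in fibroblast-like cells at that age. The part of Myef2 reads in these Slc24a5 counts was not tested.

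**Figure D4:**
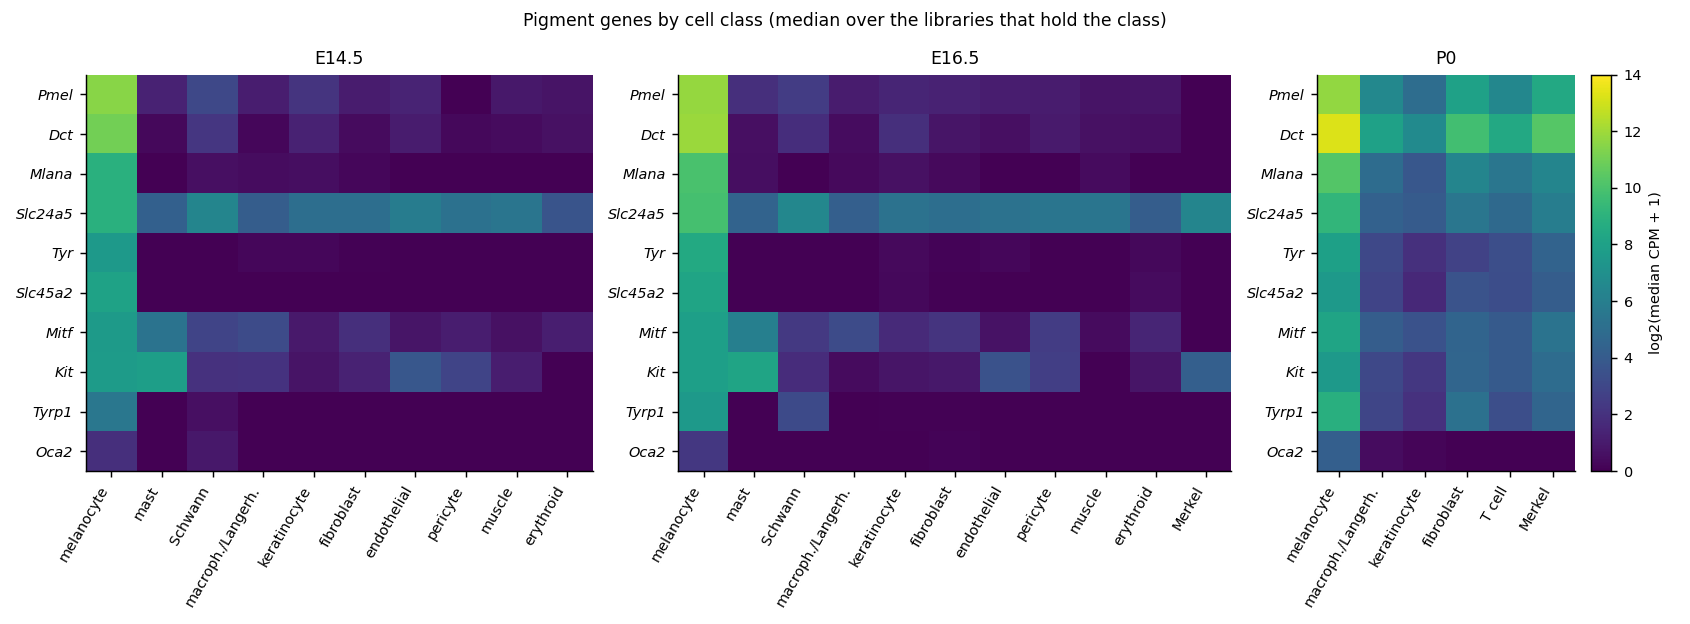
Median level of each member by cell class and age, as log2(CPM + 1) from dark (0) to yellow. Before birth Kit is as high in mast-like as in melanocyte-like cells and Slc24a5 is read in the other classes too; at P0 Dct is read in every other class, from a median of 103 CPM in keratinocyte-like to 1261 in Merkel-like cells.

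At P0 keratinocyte-like cells held more Dct, Pmel and Mlana than before birth, in every replicated library. A UMI of Dct was found in 22.4% and 11.7% of thinned keratinocyte-like cells in WT and in 7.50% and 11.3% in Grhl3-/-, at 205, 96.7, 50.8 and 109 CPM in turn. The median depths were 7951 to 10605 UMIs in these cells and 6320 to 8738 in melanocyte-like cells. At E14.5 and E16.5 the Dct level in keratinocyte-like cells was 0.442 to 6.67 CPM. Pmel stood at 1.35 to 8.51 CPM there before birth and at up to 48.5 at P0, in its highest library. Mlana was at 0.230 to 1.24 and then at 7.78 to 17.4. Slc24a5 stood the other way, at 26.2 to 50.1 CPM before birth and at 14.8 to 18.8 at P0.

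Within a P0 library, 6 members stood in keratinocyte-like cells at lower percentages of their melanocyte-like level than Kit, Slc24a5 and Mitf did. The melanocyte-like levels used here include cluster c10, which made up 40.9% of these cells in WT library 1 and 27.8% in WT library 2. In WT library 1 this was 1.81% for Dct, 1.67% for Pmel, 1.95% for Mlana, 2.22% for Tyr, 1.87% for Slc45a2 and 1.70% for Tyrp1. In WT library 2 the 6 values ran from 0.664% (Tyrp1) to 0.867% (Tyr). In Grhl3-/- library 1 they ran from 0.475% to 0.731% and in Grhl3-/- library 2 from 0.943% to 1.37%, again from Tyrp1 to Tyr.

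The 2 WT libraries lay on either side of Grhl3-/- library 2, so the percentages overlapped between genotypes. Mitf (2.76% to 4.33%), Slc24a5 (2.08% to 3.47%) and Kit (1.35% to 3.19%) stood above all 6 in every replicated P0 library. The share of free RNA or doublets in these counts was not tested.

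**Figure D5:**
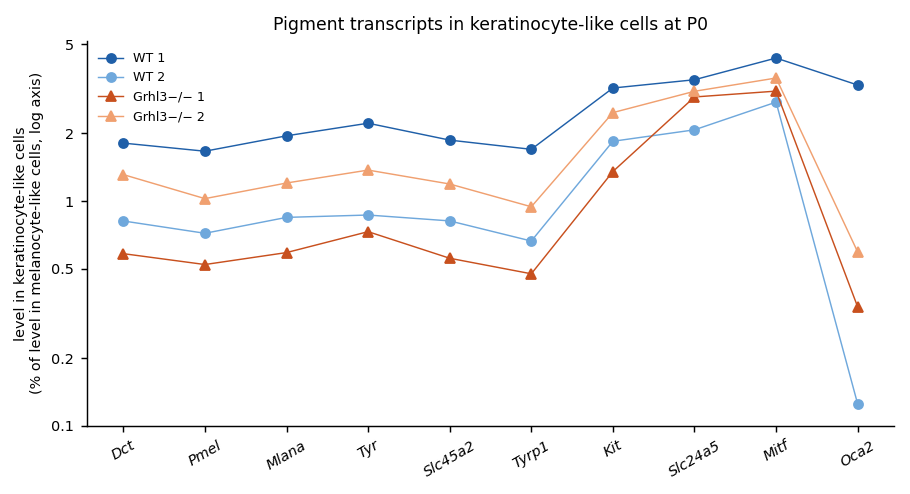
Level of each member in P0 keratinocyte-like cells as a percent of its level in melanocyte-like cells of the same library (log axis), one line per replicated library. The melanocyte-like cells include cluster c10. The 6 members from Dct to Tyrp1 run from 0.475% to 2.22% over all, and Kit, Slc24a5 and Mitf lie higher within each library, at 1.35% to 4.33%; Oca2 rests on few UMIs.

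In other P0 classes Dct was at 219 to 473 CPM in macrophage or Langerhans-like cells, found in 7.88% to 21.1% of thinned cells. In T cell-like cells it was at 61.3 and 122 CPM in WT and at 573 and 575 in Grhl3-/-, over 62 to 136 cells per library, found in 11.3% to 18.4% of thinned cells. The highest values outside the lineage were in small classes. In Merkel-like cells, 8 to 60 per library, Dct was at 1260 and 1261 CPM in WT and at 1379 and 46.7 in Grhl3-/-, found in 12.5% to 31.0% of thinned cells. In fibroblast-like cells, 15 to 72 per library, it was at 1945 and 1247 CPM in WT and at 456 and 124 in Grhl3-/-, found in 9.72% to 47.2% of thinned cells. These levels differ between classes, and the part of free RNA and of doublets in them was not tested.

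The genes of the wider pigment cell program were counted from lists. Of 24 genes of melanosome biogenesis and transport, 15 were tested in melanocyte-like cells. From E14.5 to E16.5, 2 rose and 0 fell, against 1.54% of all genes called: Cd63, a tetraspanin that sorts PMEL (log2 0.56, SE 0.13, adjusted p = 0.0327), and Hps3 (log2 2.40, adjusted p = 0.0193), which is under the level set for naming and was named after its value was seen. From E16.5 to P0, Gpnmb, a melanosomal relative of PMEL (log2 1.34, SE 0.19), and Ap3d1, an adaptor subunit for cargo sorting (log2 1.40, SE 0.28), were higher and Dtnbp1 (log2 −0.56) and Cd63 (log2 −0.45) lower. These 4 of 15 are near the 26.5% of all genes called.

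Without cluster c10, 6 of 16 tested were higher from E16.5 to P0 and 0 lower, against 16.2% of all genes called. Among them were Gpnmb (log2 1.80), Mlph (log2 1.303) and Rab27a (log2 0.84), the last 2 being partners in melanosome transport. Gpnmb, Mlph and Rab27a were also among the markers used to name the melanocyte-like class. In the P0 genotype comparison Ap3d1 (log2 −0.72, adjusted p = 0.0126) and Gpnmb (log2 −0.56, adjusted p = 0.0498) were lower, 2 of 15 against 12.1% of all genes, and without c10 neither was called. Before birth 0 of the 15 were called between genotypes.

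Of 11 lineage regulators, all tested, Sox9, Snai2 and Sox5 (log2 1.24) were called higher at P0 than at E16.5, a share near the 26.5% of all genes called. Sox9 was at 0 to 6.40 CPM in the 4 E16.5 libraries (4 UMIs in all) and at 46.5 to 96.0 in the 4 of P0. Snai2 was at 0 to 6.40 (6 UMIs) and at 23.5 to 40.5. At E14.5 they reached at most 13.9 and 8.31 CPM. Both passed the low-count filter only through P0 libraries, where they were high, so their calls are given as a description. Without c10 only 9 were tested, and Sox10 (log2 0.70, adjusted p = 0.0127) and Pax3 (log2 0.61, adjusted p = 0.00859) were the ones called higher, against 16.2% of all genes. Both were also among the markers used to name the melanocyte-like class. Sox10, which activates Mitf in the lineage, was lower in Grhl3-/- at P0 (log2 −0.76, SE 0.15, adjusted p = 0.00474; without c10, log2 −0.67, adjusted p = 0.0215), the 1 regulator called, against 12.1% of all genes with c10 and 5.51% without. In c6 Sox10 was at 378 and 340 CPM in WT and at 275 and 197 in Grhl3-/-.

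Of 10 cell cycle genes, Mki67 (log2 1.36), Top2a (log2 0.83) and Cdc20 (log2 0.86) were higher and Mcm5 (log2 −0.92) lower at P0 than at E16.5, and without c10 5 were higher and 1 lower, against 26.5% and 16.2% of all genes called. Pcna and Mcm5 were higher in Grhl3-/- at P0 with c10 (log2 0.63 and 0.71), against 12.1% of all genes, and 0 of 10 were called without it. Of 11 signals to melanocytes, 3 were tested in melanocyte-like cells. Met, the receptor for HGF, was the 1 called higher at P0 than at E16.5 (log2 2.09, or 2.52 without c10), against 26.5% and 16.2% of all genes. Its levels were 0 to 8.31 CPM at E14.5 (5 UMIs in all) and 6.40 to 9.79 at E16.5 (11 UMIs). Met passed the low-count filter only through P0 libraries, so its call is given as a description.

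Kitl, the ligand of KIT, was made by other cells: it was at 61.8 to 77.9 CPM in fibroblast-like cells at E14.5 and 90.8 to 103 at E16.5, and at 12.6 to 32.3 in keratinocyte-like cells over the 3 ages. Over all kept cells Kitl was higher in Grhl3-/- at P0 (log2 0.57, SE 0.13, adjusted p = 0.0100). Of the 11 signals, 3 were called higher and 2 lower in that comparison, where 34.1% of all genes were called. In WT over all kept cells, Kitl rose from E14.5 to E16.5 (log2 0.50, SE 0.13, adjusted p = 0.0237), where 23.3% of genes were called. It was lower in P0 epidermis than in E16.5 skin (log2 −1.62, SE 0.14, adjusted p = 5.73e-06), where 67.9% were called. In keratinocyte-like cells Kitl was at 16.4 to 32.3 CPM at E16.5 and at 19.3 to 28.8 at P0. Fibroblast-like cells had it at 7.41 to 16.2 CPM at P0 (22 UMIs). The part of class shares in these sums was not tested.

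The genes most like the members were ranked by the correlation of log2(CPM + 10) with the members' mean, over 102 sums of 1 class in 1 library from 12 classes, for 4213 genes. These points share libraries and depth, and the values are a description. Outside the members the closest were Trpm1 (0.984), Mcoln3 (0.976), Tspan10 (0.975), Ptgds (0.975), Mc1r (0.973), Gpnmb (0.971), Cpne4 (0.965), Syt4 (0.964), Bace2 (0.957) and Glrb (0.937). Of these, Trpm1, Mcoln3, Tspan10, Ptgds and Gpnmb were among the markers used to name the melanocyte-like class. Their high rank was in part set by that choice. Among members Mlana ranked 1 (0.989), Pmel 3 and Tyr 4, whereas Slc24a5 ranked 39 and Kit 71.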

How the data were processed

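The authors made 10x Genomics 3′ libraries (Chromium v2, and v1 for 1 library) and deposited raw UMI counts per gene and barcode. The submitters' processing notes name Cell Ranger 1.3.1, Seurat and mm10, and the methods state another Cell Ranger version. The members and lists were chosen with earlier results of these data known.

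Cells with 600 to 4800 genes (E14.5, E16.5) or 900 to 7700 (P0) and at most 10% mitochondrial UMIs were kept. Each age was integrated and clustered in Seurat 5.3.0 (R 4.3.3; 3000 variable genes, 30 dimensions, 20 neighbours, resolution 1.0). Clusters were named from marker lists with score limits of 0.5 (keratinocytes) and 1.5 (others) set after scores had been seen. Doublets were scored with Scrublet in scanpy 1.11.5 and kept. Its own threshold called under 0.5% of cells in 9 of 13 libraries, so cells were marked by score rank instead.

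UMIs summed per library, over melanocyte-like cells or all kept cells, were tested with edgeR 4.0.16 (filterByExpr, TMM, quasi-likelihood test, 6 groups in 1 fit, Benjamini-Hochberg over all genes, threshold 0.05); the SE was derived from the quasi-F. 3′ UMIs were not divided by length. The v1 library was not tested. Shares of cells were read after thinning to 3000 UMIs, which left out 5 melanocyte-like cells of E16.5. The scripts were tested on simulated data. Replicates differed beyond sampling noise. Replicate numbers were not taken as pairs. List genes were named if they passed the test and averaged 5 or more on the log2 CPM scale, up to 6 per list and comparison; Hps3, Snai2, Met and the cell cycle genes fall outside that rule and were named after their values were seen. DESeq2 1.42.0, other normalization, filters, clustering, doublet removal and left-out libraries were alternatives. Leaving out cluster c10 or the E14.5 shares, and c6 or c17 alone, were chosen after seeing the data.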

Additional observations from a re-analysis of the deposited data

Results flagged for a closer look

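The 1 P0 WT library made with Chromium v1 chemistry entered no comparison, and 7 members stood in its 336 melanocyte-like cells above both replicated P0 WT libraries, with exact Poisson 95% intervals that cover counting error only. Pmel was at 9541 CPM (9420 to 9663) against a highest replicated value of 3508, and Mlana at 1787 CPM (1735 to 1840) against 1081. Slc24a5 was at 1413 CPM, Tyr at 541 CPM and Slc45a2 at 410 CPM, which is 1.97, 2.38 and 2.15 times the highest replicated library. Tyrp1 was at 916 CPM against 504, and Oca2 at 43.3 CPM (35.5 to 52.3) against 12.95. These replicated values include cluster c10. Without it the highest were 4906 CPM for Pmel, 1469 for Mlana, 976 for Slc24a5 and 315 for Tyr. For Slc45a2, Tyrp1 and Oca2 they were 265, 727 and 19.3 CPM. No cluster was left out of the v1 library. Dct (6918 CPM), Mitf (104 CPM) and Kit (78.6 CPM) were below both replicated P0 WT libraries. For the members called between genotypes at P0, Kit in this WT library was lower than in both Grhl3-/- libraries (155 and 140 CPM; 226 and 202 without cluster c10). Its Oca2 level was above theirs with c10 (23.1 and 34.3 CPM) and between them without it (35.4 and 59.1 CPM). Chemistry, mouse and preparation cannot be told apart with 1 library.

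Over all kept cells the Oca2 difference between genotypes was larger at P0 than at E16.5 by 2.89 on the log2 scale (edgeR, adjusted p = 0.0464), as tested by the difference of the 2 contrasts. In melanocyte-like cells the same contrast was not called (log2 3.89, adjusted p = 0.203).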

How the results depend on the processing

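Of 3083 member values recomputed under alternatives, 2972 stayed on their side of the threshold, 155 of these with the other sign and not called under either setting. A further 56 lost the call, 55 gained one and 0 reversed a call. With no low-count filter, called members in melanocyte-like cells numbered 2 for genotype at E14.5, 5 for genotype at P0, 5 from E14.5 to E16.5 and 1 for each difference of genotype effects. With only the groups compared, 5 were called from E14.5 to E16.5. A gate on single cells gave 1 there and 2 from E16.5 to P0. Clusters c6 and c17 alone gave 0 and 1 for genotype at P0, where Oca2 did not pass the filter and was not tested. Over all kept cells DESeq2 called 1 at E14.5, 1 at E16.5 and 3 at P0 (Dct, Kit and Oca2) for genotype, 3 from E14.5 to E16.5 (Dct, Mlana and Tyr) and 2 for the change in genotype effect from E16.5 to P0. Among all genes it called 402 of 16187, 936 of 17187 and 5954 of 16853 for genotype at the 3 ages. From E14.5 to E16.5 it called 4305 of 17187 genes, and 3871 of 15854 for the change in genotype effect from E16.5 to P0. With only the groups compared 1 member was called from E14.5 to E16.5 and 0 for that change in effect. The cause of these shifts was not tested.

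Leaving out 1 library at a time gave, in melanocyte-like cells, 0 to 1 called members for genotype at E14.5, 0 to 4 at P0, 0 to 3 from E14.5 to E16.5 and 1 to 4 from E16.5 to P0. The 4 at P0 came without P0 WT replicate 2, where Tyrp1 (log2 1.61, adjusted p = 0.00449) and Mlana (log2 0.61, adjusted p = 0.025) joined. Over all kept cells the ranges were 0 to 3 for genotype at P0, 0 to 3 from E14.5 to E16.5 and 0 to 2 for the change in genotype effect. The log2 difference in melanocyte share was 0.198 to 0.501 for E16.5 against E14.5 with 1 library left out (−0.435 with the gate on single cells, exact permutation p = 0.0857; past the threshold without E16.5 Grhl3-/- replicate 2, exact permutation p = 0.0286) and −0.374 to −0.071 for genotype (past it without E16.5 Grhl3-/- replicate 1, exact permutation p = 0.0278).

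Same-numbered libraries were not taken as pairs (r of deviations from −0.147 to 0.00783 in melanocyte-like cells and from −0.214 to 0.0623 over all kept cells). With the replicate number as a block, 2 members were called for genotype at P0 in melanocyte-like cells, and over all kept cells 1 from E14.5 to E16.5 and 0 for the change in genotype effect. Among all genes the calls were, in turn, 611 of 6429, 3328 of 17187 and 2464 of 17187. With the numbers crossed where r was under −0.1, chosen after seeing the data, 3 members were called for genotype at P0 in melanocyte-like cells (P0 crossed), and over all kept cells 3 from E14.5 to E16.5 and 0 for the change in genotype effect (E16.5 crossed). Over all genes, the count called in melanocyte-like cells ranged over the alternatives from 80 to 1446 for genotype at P0 and from 23 to 220 from E14.5 to E16.5 and from 788 to 2751 from E16.5 to P0. Before birth it ranged from 0 to 31 and from 2 to 32 for genotype at E14.5 and E16.5. For the changes in genotype effect it ranged from 0 to 37 and from 0 to 240. Over all kept cells it ranged from 1 to 402 and from 10 to 936 for genotype at E14.5 and E16.5, from 3538 to 6129 at P0, from 1636 to 4309 from E14.5 to E16.5, and from 11 to 1091 and 1600 to 3871 for the changes in effect. The E14.5 and E16.5 sums of 35 to 74 cells limit what can be seen for Tyrp1 and Oca2.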
